A study of Aspergillus nidulans with 48 samples.

Results

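The conidia of the ΔatfA strain (DAtfA in the labels) of Aspergillus nidulans were compared between cultures that carried menadione sodium bisulfite (MSB) and untreated cultures. All conidial libraries labelled with this genotype were taken, 3 from MSB-treated and 3 from untreated cultures, which makes 6 of the 48 libraries of the series. The other libraries came from mycelia of the same strain and from mycelia and conidia of a control strain (THS30.3), a ΔatfB strain and a ΔatfAΔatfB strain. The conidia were washed from 3-day-old surface cultures grown at 37 °C on nitrate minimal medium (Barratt's agar), so MSB, given as 0.04 mM, was present while the culture that formed the spores grew. The labels write the unit as "Mm", and it is read here as mM. Total RNA was sequenced as single reads, and reads were counted per gene. Replicates 1 and 2 of each group carried the label of batch 1 and replicate 3 that of batch 2, so batch 2 holds 1 library per group.

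A bZIP factor is a transcription factor that binds DNA as a pair through a basic region and a leucine zipper. AtfA belongs to the ATF/CREB branch of this family and is known in aspergilli as a regulator of stress resistance and of spore maturation, acting with the stress MAP kinase HogA (SakA). MSB is a water-soluble form of menadione, a quinone that cycles between redox states in the cell and yields superoxide. Conidia are the asexual spores, formed on stalked conidiophores under the regulators BrlA, AbaA and WetA in turn, and covered by a pigment and a layer of hydrophobin rodlets.

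The 6 libraries held between 10742605 and 22694003 counts over 10988 genes. Values per gene below are RPKM, counted reads scaled by the length of the gene and by the total of the library. The deleted gene, atfA (AN2911), read 27.2, 26.5 and 67.8 RPKM in untreated replicates 1 to 3 and 10.4, 14.02 and 27.8 RPKM in the MSB-treated ones, where the control conidia held 437 to 576 RPKM untreated and 299 to 437 RPKM on MSB. The remaining reads were fewer on MSB, with means of 17.4 ± 9.17 RPKM (SD, n = 3) against 40.5 ± 23.7 RPKM untreated. The groups overlapped between the highest MSB-treated and the lowest untreated library, and a two-sided exact permutation test gave p = 0.3, where 0.1 is the smallest p that 3 against 3 libraries allow. That test takes no account of batch. Within each batch the MSB-treated libraries were lower, and in the edgeR fit with batch as a term the remaining reads were called lower (log2 fold change -1.13, SE 0.14, adjusted p = 0.00295).

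Library MSB replicate 3 stood apart from its own group. Over the 9596 genes tested, its log2 RPKM values correlated at r = 0.902 and 0.899 with MSB replicates 1 and 2, and at 0.965, 0.959 and 0.927 with the untreated libraries, whereas MSB replicates 1 and 2 correlated at 0.981 with each other. Untreated replicate 3 stood apart from its group as well. It correlated at 0.942 and 0.932 with untreated replicates 1 and 2, which correlated at 0.985 with each other. On the first principal component, which held 69.7% of the variance, MSB replicates 1 and 2 lay at 70.1, untreated replicates 1 and 2 at -28.6 and -22.3, MSB replicate 3 at -17.7 and untreated replicate 3 at -71.6. Within batch 2 the MSB-treated library thus lay on the same side of its untreated partner as in batch 1. Results are therefore given over the 6 libraries with batch as a term. The total counts of genes called, and the values of some lists and genes, are also given for batch 1 alone (2 against 2 libraries). What set the batches apart was not tested. Batch 2 with 1 library per group gives a difference with no test.

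Conidia of the ΔatfA strain responded to MSB in both directions. A gene was called where its edgeR adjusted p was below 0.05 and its log2 fold change lay beyond 1, and 530 genes rose and 805 fell among 9596, which is 5.52% and 8.39% of the genes tested. In batch 1 alone 922 genes rose and 1110 fell, 9.61% and 11.6% (21.2% in all). Of the 530 genes that rose, 484 were also called in batch 1 alone, and of the 805 that fell, 722 were. The difference in the batch 2 pair was above 0 for 529 of the 530 and beyond 1 on the log2 scale for 329, and it was below 0 for each of the 805 and below -1 for 579. These 2 counts use libraries that entered the fit. The groups did not overlap in RPKM for 315 of the 530 and for 616 of the 805, beside 15.1% (higher on MSB) and 19% (lower) of the genes tested. Without the batch term the same 6 libraries gave 4 genes up and 29 down.

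The batches agreed less for genes called in batch 1 alone, where the batch 2 pair took no part in the call. Of the 922 genes up in batch 1, the batch 2 difference was above 0 for 627 (68%) and above 1 for 284 (30.8%), while it was below -1 for 92. Of the 1110 genes down in batch 1, it was below 0 for 937 (84.4%) and below -1 for 502 (45.2%). Over all genes 50.3% of the batch 2 differences were above 0. Across the 9596 genes the batch 1 fold change and the batch 2 difference correlated at r = 0.464 (Spearman 0.436), a description across genes, which are not independent replicates, and of values scaled together.

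**Figure D1:**
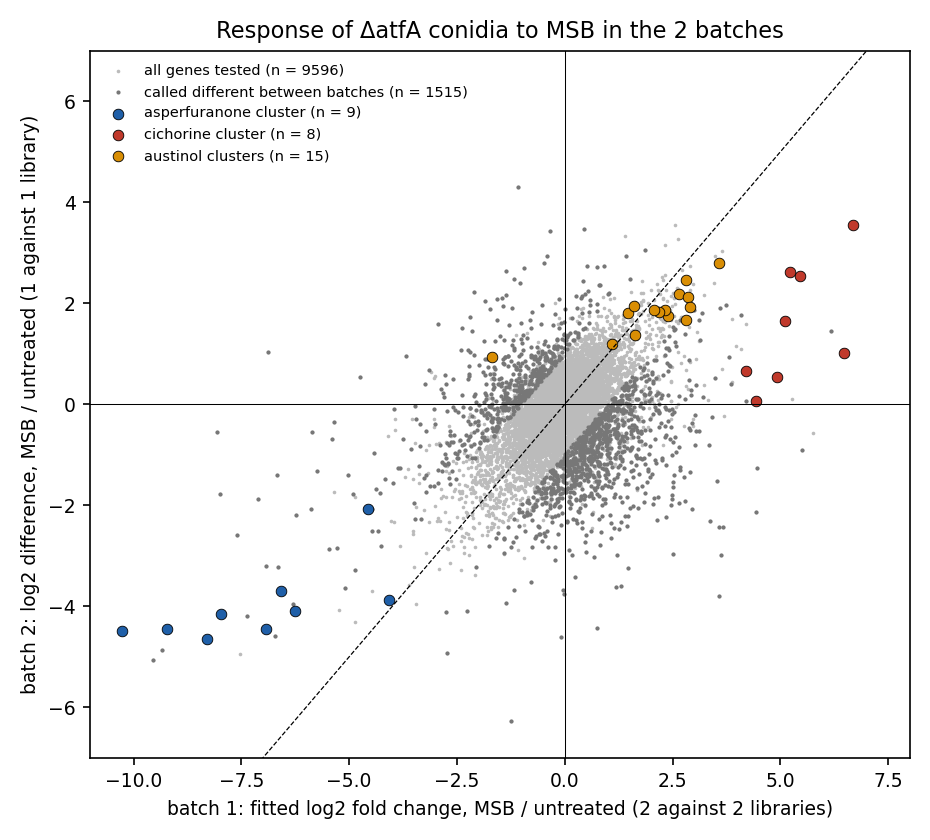
Each point is a gene, with its fitted log2 fold change on MSB in batch 1 (x axis, 2 against 2 libraries) and its log2 difference in batch 2 (y axis, 1 against 1 library); dark grey marks the 1515 genes called different between batches, and the dashed line is equality. The 9 asperfuranone genes lie far to the lower left and the 14 austinol genes that rose lie close to the line, whereas the 8 cichorine genes rose in batch 1 by more than in batch 2.

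The 10 highest genes called with groups that did not overlap and a mean of at least 10 RPKM held spore wall, secondary metabolite and uncharacterised genes. The highest was AN8802, an uncharacterised gene that lies beside the hydrophobin gene rodA in the RefSeq gene order, with 0.390, 0.564 and 0.346 RPKM untreated and 27.9, 40.7 and 1.11 RPKM on MSB. Its rise (log2 fold change 5.14, SE 0.90, adjusted p = 0.00880) came mostly from batch 1, where MSB-treated libraries reached 27.9 and 40.7 RPKM against 1.11 RPKM in batch 2. AN5046, which encodes the defensin-like secreted peptide anisin-1, went from 166.5, 209.7 and 56.1 RPKM to 2081, 2271 and 210.5 RPKM (log2 fold change 3.07, SE 0.39, adjusted p = 0.00342). AN3776, a predicted membrane transporter, was among the genes with like rises in both batches, from 1.45, 1.79 and 1.16 RPKM to 8.89, 10.4 and 11.9 RPKM (log2 fold change 2.89, SE 0.24, adjusted p = 0.00124). AN5019, a predicted methionine synthase, went from 9.09, 9.67 and 11.98 RPKM to 65.4, 76.1 and 44.2 RPKM (log2 fold change 2.62, SE 0.26, adjusted p = 0.00168). The others were dewA and AN8382, both described below or beside the austinol genes, AN9272, AN8624, AN7214 and AN3535. AN8624 went from 20.9, 27.98 and 16.3 to 311.03, 346.8 and 31.5 RPKM, a log2 fold change of 2.95 at adjusted p = 0.0166, and its adjusted p was 0.0556 with the replicate number as a block. By the values above, AN8802, AN5046 and AN8624 rose less in batch 2 than in batch 1. In all 10 genes the batch 2 pair moved up, but the choice of genes whose groups did not overlap requires this. It is therefore no separate check of the rises in batch 2.

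The 10 lowest genes were led by the asperfuranone cluster, of which 5 members were among them. The batch 2 pair moved down in all 10, which the choice of genes whose groups did not overlap requires here too. AN9299, AN8656, AN1642 and AN1643 made up the rest together with mutA, described with the sexual tissue genes. AN9299, with no description in the sources used here, read 811, 699.9 and 1266 RPKM untreated and 1.61, 0.757 and 43.5 RPKM on MSB (log2 fold change -7.45, SE 1.08, adjusted p = 0.00513). AN8656, likewise without a description, read 210.6, 145.9 and 966 RPKM and 0.206, 0.231 and 28.9 RPKM (log2 fold change -7.28, SE 0.99, adjusted p = 0.00417). AN1642, a putative vanillyl alcohol oxidase-related gene, and its neighbour AN1643 fell by 5.83 and 5.70 on the log2 scale. In each of these genes the 2 MSB-treated libraries of batch 1 were below 2 RPKM, while the MSB-treated library of batch 2 kept between 1.69 and 43.5 RPKM.

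Asperfuranone is a polyketide of A. nidulans whose genes lie in a single cluster under the activator AfoA. All 9 genes of the cluster list were tested and all 9 fell on MSB, beside 8.39% of all genes. The median log2 fold change of the list was -6.06, where that of all genes was 0.00. The activator gene afoA read 108.9, 89.8 and 129.03 RPKM untreated and 5.77, 5.34 and 8.75 RPKM on MSB, a fall of like size in both batches (log2 fold change -4.004, SE 0.14, adjusted p = 0.000451). The polyketide synthase gene afoE read 141.96, 149.8 and 85.05 RPKM and 0.319, 0.168 and 3.89 RPKM (log2 fold change -7.52, SE 1.21, adjusted p = 0.00682). The other polyketide synthase gene, afoG, read 116.8, 122.7 and 45.2 RPKM and 1.18, 0.747 and 2.06 RPKM (log2 fold change -6.06, SE 0.62, adjusted p = 0.00186). In all 3 genes every MSB-treated library lay below every untreated one. The putative efflux pump gene afoB had the largest fall of all genes named, from 1319, 1203 and 1480 RPKM to 1.43, 0.635 and 66.2 RPKM (log2 fold change -8.34, SE 1.53, adjusted p = 0.0101). The putative salicylate hydroxylase gene afoD went from 314.2, 312.2 and 423 RPKM to 1.27, 0.721 and 16.96 RPKM, and the oxidoreductase gene afoC from 669, 585 and 572 RPKM to 1.98, 2.60 and 32.2 RPKM. For 7 of the 9 genes the fall was smaller in batch 2 by the test of the difference, beside 5.94% of all genes. The list median was -6.92 in batch 1 and -4.15 in batch 2. AN1028, a predicted zinc-cluster transcription factor next to the cluster and outside the list, fell as well, from 197.8, 172.6 and 190.02 RPKM to 16.7, 14.04 and 33.6 RPKM (log2 fold change -3.16, SE 0.25, adjusted p = 0.00117).

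**Figure D2:**
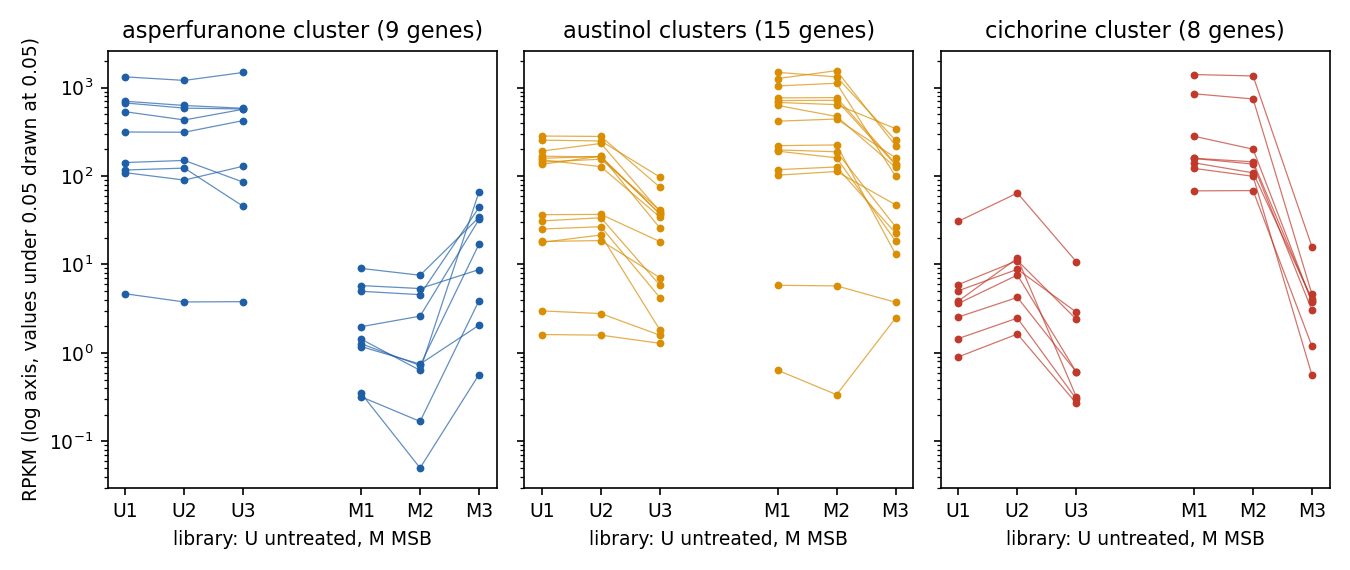
RPKM (log axis) of each tested gene of 3 secondary metabolite clusters in the untreated (U1 to U3) and MSB-treated (M1 to M3) libraries of ΔatfA conidia; lines join the libraries of a group for the same gene. The asperfuranone genes drop on MSB in all 3 libraries and less in M3, the austinol genes stand lower in U3 and M3 than in the other libraries of their group, and the cichorine genes are high in M1 and M2 but not in M3.

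The austinol genes moved the other way. Austinol is a meroterpenoid made from a polyketide, and its genes lie in 2 clusters. Of the 15 listed genes, all of them tested, 14 rose, beside 5.52% of all genes, and AN9244 had a log2 fold change of -0.74 (adjusted p = 0.378). The median log2 fold change was 2.19 over both batches, 2.32 in batch 1 and 1.86 in batch 2. In batch 1 alone 14 of the 15 rose and 1 fell, beside 9.61% and 11.6% of all genes. The polyketide synthase gene ausA read 25.1, 26.7 and 4.22 RPKM untreated and 190.8, 160.5 and 18.4 RPKM on MSB (log2 fold change 2.62, SE 0.21, adjusted p = 0.00117). The value of MSB replicate 3 lay below those of untreated replicates 1 and 2, so the groups overlapped, while within each batch the MSB-treated libraries were higher. ausC went from 17.8, 21.5 and 1.83 RPKM to 220.2, 224.4 and 13.1 RPKM (log2 fold change 3.37, SE 0.20, adjusted p = 0.000841), and ausD from 135.4, 167.9 and 25.9 RPKM to 1041, 1118 and 99.5 RPKM (log2 fold change 2.60, SE 0.24, adjusted p = 0.00156). AN8382, which lies between ausC and ausA in the gene numbering and is not in the list, was among the 10 highest genes with log2 fold change 2.87, SE 0.17, adjusted p = 0.000841.

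The cichorine cluster around the polyketide synthase gene pkbA, singled out after its values were seen, rose in batch 1. Of its 9 genes 8 were tested and all 8 rose, beside 5.52% of all genes, with a median log2 fold change of 4.71. The median was 5.17 in batch 1 but 1.32 in batch 2. For 7 of the 8 the rise was smaller in batch 2 by the test of the difference, beside 9.85% of all genes. With the replicate number as a block 4 of the 8 were called higher, beside 426 of all 9596 genes, and pkbA was not (adjusted p = 0.0803). cicE, which encodes a predicted O-methyltransferase, read 3.86, 11.8 and 0.318 RPKM untreated and 849, 742 and 4.59 RPKM on MSB (log2 fold change 6.29, SE 0.75, adjusted p = 0.00291). pkbA read 0.902, 1.63 and 0.269 RPKM and 121.8, 99.2 and 0.558 RPKM (log2 fold change 5.25, SE 1.30, adjusted p = 0.0262). cicD, the predicted regulator of the cluster and the transcription factor gene with the largest change among those called, read 1.45, 2.47 and 0.301 RPKM and 67.9, 68.4 and 1.18 RPKM (log2 fold change 4.72, SE 0.58, adjusted p = 0.00309). In all 3 genes the MSB-treated library of batch 2 lay within the untreated range.

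The terrequinone genes, also chosen after their values were seen, fell. Of the 5 listed genes, all tested, tdiA, tdiB, tdiC and tdiD were called lower, beside 8.39% of all genes. tdiE, with a log2 fold change of -0.88 (adjusted p = 0.0227), was not called. With the replicate number as a block 3 were called lower, beside 619 of all 9596 genes. The aminotransferase gene tdiD read 320.4, 216.1 and 661 RPKM untreated and 2.81, 2.25 and 251.6 RPKM on MSB (log2 fold change -5.02, SE 1.31, adjusted p = 0.0303), and its adjusted p was 0.0790 with the block. The difference between batches was called for each of the 4 genes that fell, beside 5.94% of all genes with a higher response in batch 2. Within batch 2 the MSB-treated library held 252 RPKM against 661 RPKM, so that the batch 2 value was above untreated replicate 2.

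The monodictyphenone cluster makes a benzophenone from an anthraquinone precursor. Of its 12 genes, all tested, 5 fell and none rose, beside 8.39% and 5.52% of all genes. The median log2 fold change of the list was -1.07. mdpC, a ketoreductase gene, had groups that did not overlap, with 57.4, 76.8 and 60.8 RPKM untreated and 19.5, 20.9 and 14.9 RPKM on MSB (log2 fold change -1.77, SE 0.17, adjusted p = 0.00153). mdpJ, a putative glutathione S-transferase gene, varied widely in untreated libraries, with 31.97, 75.2 and 2.85 RPKM, against 7.34, 8.42 and 2.09 RPKM on MSB, and its adjusted p of 0.0338 became 0.0740 with the replicate number as a block. mdpH, mdpL and mdpB were called as well, with log2 fold changes of -1.37, -1.73 and -1.35. In the fit of all 24 conidial libraries mdpC, mdpJ, mdpH and mdpL were not called (adjusted p = 0.108, 0.159, 0.331 and 0.304).

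Of the 18 tested sterigmatocystin genes (of 26), which serve the synthesis of the mycotoxin sterigmatocystin, 2 fell and none rose, a share near the 8.39% of all genes that fell. The median log2 fold change was -0.10 over the 6 libraries, 0.55 in batch 1 and -1.10 in batch 2. For 11 of the 18 the response was lower in batch 2 by the test of the difference, beside 9.85% of all genes. aflR, the pathway regulator, read 3.62, 3.14 and 2.66 RPKM untreated and 7.42, 5.63 and 2.15 RPKM on MSB (log2 fold change 0.61, adjusted p = 0.227). The genes that fell were AN7822 (log2 fold change -1.08, SE 0.10, adjusted p = 0.00166) and the cytochrome P450 gene stcF (log2 fold change -1.26, SE 0.35, adjusted p = 0.0375), whose adjusted p was 0.0907 with the block.

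Of 13 tested aspercryptin genes (of 14) 4 rose and none fell, beside 5.52% and 8.39% of all genes. In batch 1 alone 9 rose, beside 9.61% of all genes. The median log2 fold change of the list was 1.38 in batch 1, and the median difference was -0.25 in batch 2. The synthetase gene AN7884 read 0.544, 0.771 and 0.150 RPKM untreated and 2.40, 1.87 and 0.715 RPKM on MSB (log2 fold change 1.93, SE 0.23, adjusted p = 0.00281). The other 3 called members, AN7876, AN7883 and AN7878, had adjusted p values of 0.0405, 0.0322 and 0.0243, which were 0.108, 0.0727 and 0.0678 with the block. In the F9775 and dba clusters 3 of 14 tested genes rose, among them the amidohydrolase gene orsB (log2 fold change 1.19, SE 0.11, adjusted p = 0.00151). The penicillin gene ipnA, encoding isopenicillin N synthase, fell from 35.3, 30.8 and 50.9 RPKM to 16.2, 10.1 and 15.5 RPKM (log2 fold change -1.40, SE 0.24, adjusted p = 0.00788). Of 4 tested emericellamide genes (of 5) the synthetase gene easA fell (log2 fold change -1.27, SE 0.13, adjusted p = 0.00181), while the other 3 had fold changes above 0 and were not called, among them easD at 1.38 (adjusted p = 0.0575). The median of the list was 0.48, with 1.02 in batch 1 and -0.57 in batch 2, and in batch 1 alone 2 members rose. Neither of the 2 tested asperlin genes (of 9) was called. Over all secondary metabolite clusters 48 of 335 tested genes rose and 49 fell, beside 5.52% and 8.39% of all genes, 459 being listed, with a median log2 fold change of -0.09.

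The wall hydrophobin genes rodA and dewA and the pigment genes wA, yA and ivoA rose. rodA (AN8803), which encodes the rodlet hydrophobin of the conidial wall, read 7723, 7249 and 2013 RPKM in untreated conidia and 40268, 38257 and 7810 RPKM on MSB (log2 fold change 2.31, SE 0.21, adjusted p = 0.00142). Untreated replicate 3 was the lowest of the 6 libraries, and MSB replicate 3, though higher than all untreated ones, was far below MSB replicates 1 and 2. dewA (AN8006), which encodes another wall hydrophobin, went from 2232, 3263 and 391.5 RPKM to 13306, 17233 and 4590 RPKM (log2 fold change 2.89, SE 0.30, adjusted p = 0.00197), with the larger difference in batch 2 (3.55 on the log2 scale, against a fold change of 2.55 in batch 1). Of the pigment genes, wA, the polyketide synthase of the conidial pigment, went from 22.5, 28.4 and 6.63 RPKM to 103.02, 112.4 and 31.96 RPKM (log2 fold change 2.21, SE 0.14, adjusted p = 0.000841). yA, the laccase that turns the yellow pigment green, went from 155.2, 127.04 and 47.9 RPKM to 849, 671 and 138.8 RPKM (log2 fold change 2.20, SE 0.27, adjusted p = 0.00297). ivoA, a gene of the brown conidiophore pigment, rose as well (log2 fold change 1.98, SE 0.26, adjusted p = 0.00395), while ivoB had a log2 fold change of 0.26 (adjusted p = 0.743).

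Among the 14 regulators of asexual development, all tested, 2 rose and none fell, beside 5.52% and 8.39% of all genes. abaA, needed for the spore-forming phialides, read 42.8, 38.5 and 13.3 RPKM untreated and 97.4, 96.1 and 40.6 RPKM on MSB (log2 fold change 1.43, SE 0.11, adjusted p = 0.00109). wetA, which acts in spore maturation, read 68.6, 67.9 and 38.7 RPKM and 121.6, 136.5 and 93.2 RPKM (log2 fold change 1.10, SE 0.10, adjusted p = 0.00144). brlA, which starts conidiophore development, read 291.2, 259.3 and 237.9 RPKM and 477, 433 and 360.2 RPKM, so the groups did not overlap, but its log2 fold change of 0.75 (adjusted p = 0.0108) lay below the fold threshold. The same held for vosA, a factor for spore viability and trehalose content, at 0.64 (adjusted p = 0.0252), and for the upstream activator flbC at 0.75 (adjusted p = 0.00381). On the other side flbA had a log2 fold change of -0.67 (adjusted p = 0.00517), the developmental modifier medA -0.84 (adjusted p = 0.00393) and flbB -0.53 (adjusted p = 0.0376). veA, velB, flbD, flbE, fluG and stuA had adjusted p values between 0.133 and 0.904 and log2 fold changes between -0.32 and 0.17.

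Some conidium markers were high in this strain and others were low. rodA, dewA, wetA, vosA, cetA, calA and conJ were read at 10 RPKM or more in each of the 6 libraries. catA, which encodes the spore-specific catalase, was between 0.31 and 3.899 RPKM, and SpoC1-C1C, of a conidium-specific gene cluster, was between 0.06 and 1.77 RPKM. conF, cetJ, cetL and SpoC1-C1D stayed between 0.58 and 19.9 RPKM. Of the 13 markers, 3 rose (rodA, dewA and wetA) and none fell, beside 5.52% and 8.39% of all genes. cetA, a thaumatin-like gene of spores, read 3449, 3274 and 3705 RPKM untreated and 1631, 1525 and 3924 RPKM on MSB, and calA 248.5, 246.7 and 154.6 RPKM and 60.7, 94.7 and 163.4 RPKM. For both the MSB-treated libraries of batch 1 were lower and that of batch 2 was not, they fell in batch 1 alone (log2 fold changes of -1.004 and -1.58), and the difference between batches was called, while over the 6 libraries their adjusted p was 0.103 and 0.0728.

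Markers of other cell types moved with MSB too, where 5.52% of all genes rose and 8.39% fell. Of the 7 conidiophore markers, brlA, abaA, ivoA, ivoB, yA, wA and phiA, 4 rose and none fell. Their summed level was 325 to 570 RPKM in untreated and 639 to 1613 RPKM in MSB-treated libraries, and phiA was between 0.69 and 9.60 RPKM. catB, the hyphal catalase, read 122.4, 115.7 and 56.5 RPKM untreated and 163.7, 189.7 and 78.3 RPKM on MSB, with a log2 fold change of 0.60 (adjusted p = 0.00997). Of the 6 sexual tissue markers 3 fell and none rose, and their summed level was 1453 to 2579 RPKM untreated and 244 to 628 RPKM on MSB. mutA, the mutanase of Hülle cells, the nurse cells of the fruiting body, read 1070, 1028 and 1550 RPKM untreated and 11.04, 5.71 and 168.6 RPKM on MSB (log2 fold change -5.74, SE 0.95, adjusted p = 0.00749), so it was far from 0 in untreated conidia. nosA and rosA, regulators of sexual development, fell by 1.44 and 1.07 on the log2 scale, and cpeA, steA and nsdD had log2 fold changes of -1.005, -0.57 and 0.16 (adjusted p = 0.0571, 0.0343 and 0.338). Fewer cells of a type and less RNA per cell cannot be told apart in bulk RNA, and the part of these markers in the other results was not tested.

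**Figure D3:**
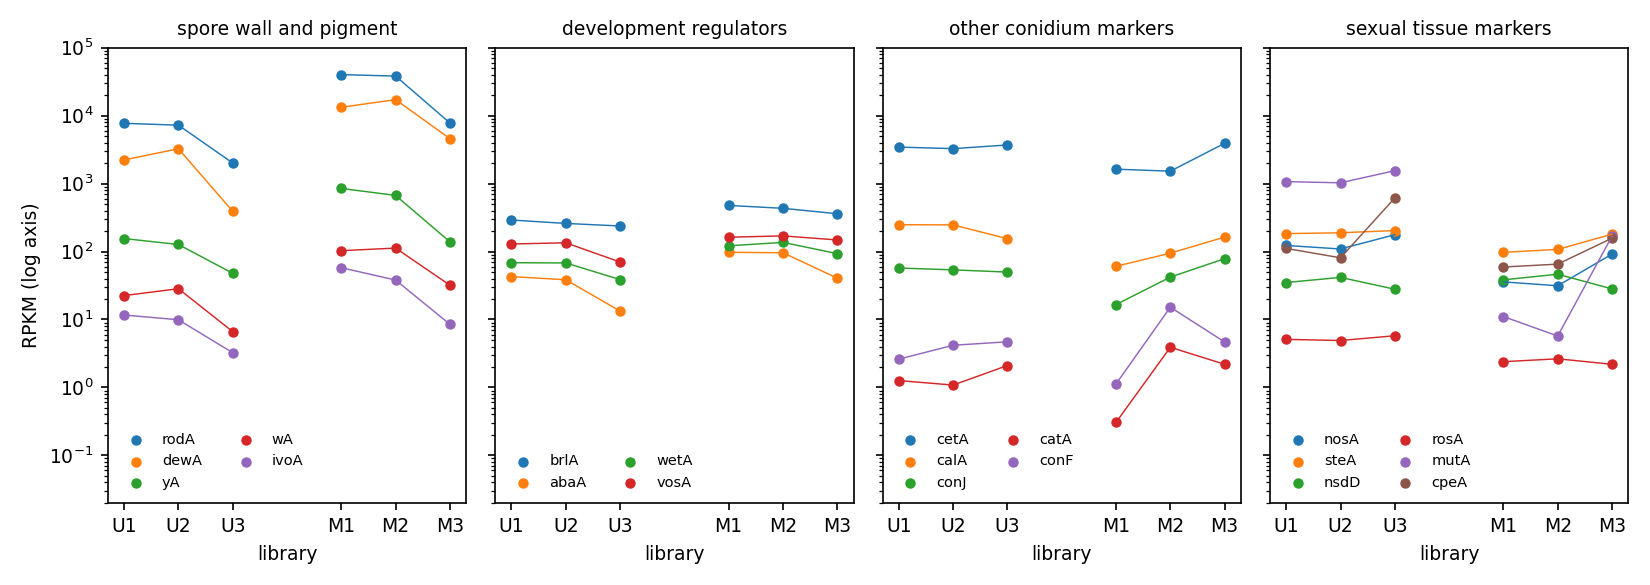
RPKM (log axis) of marker genes in the 3 untreated (U1 to U3) and 3 MSB-treated (M1 to M3) libraries of ΔatfA conidia, in panels for wall and pigment genes, development regulators, other conidium markers and sexual tissue markers. Wall and pigment genes are higher on MSB within each batch, catA and conF stay between 0.31 and 15.2 RPKM, and mutA drops from over 1000 RPKM to between 5.71 and 169 RPKM.

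Apart from the deleted atfA, whose remaining reads are given above, none of the other 3 bZIP stress factors was called. napA, the Yap1-type activator of the oxidative stress response, read 225.5, 229.4 and 323.7 RPKM untreated and 104.3, 109.01 and 239.4 RPKM on MSB, with a log2 fold change of -0.81 (adjusted p = 0.0113) that was under the fold threshold. atfB read 56.3, 46.8 and 41.4 RPKM and 17.6, 17.1 and 59.2 RPKM, with a log2 fold change of -0.82 (adjusted p = 0.176). In batch 1 alone atfB fell (log2 fold change -1.49), the batch 2 difference was 0.51, and the difference between batches was called. hapX, the iron-responsive bZIP factor, read 32.96, 31.3 and 18.5 RPKM and 33.1, 33.4 and 28.1 RPKM (adjusted p = 0.132).

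Of the 35 tested antioxidant enzyme genes (of 38), 3 rose and 1 fell, beside 5.52% and 8.39% of all genes, and the median log2 fold change was 0.31. The peroxiredoxin gene tpxB rose alike in both batches, from 80.95, 92.6 and 58.4 RPKM to 206.6, 237.9 and 153.5 RPKM (log2 fold change 1.43, SE 0.10, adjusted p = 0.000996). The putative cytochrome c peroxidase gene AN5440 rose from 28.4, 33.5 and 26.6 RPKM to 59.1, 65.5 and 50.7 RPKM (log2 fold change 1.04, SE 0.12, adjusted p = 0.00258). trxB, a thioredoxin reductase gene, rose in batch 1 only by its values, from 4.34 and 3.74 RPKM to 49.8 and 59.98 RPKM, with 2.83 and 3.77 RPKM in batch 2. Its log2 fold change was 2.84 at adjusted p = 0.0308, which became 0.0854 with the block. sodA, the Cu/Zn superoxide dismutase gene, read 799.6, 810.0 and 592 RPKM untreated and 1475, 1604 and 1100 RPKM on MSB; its groups did not overlap, and its log2 fold change of 0.98 (adjusted p = 0.00303) lay just under the threshold. The peroxiredoxin-like gene AN1252 fell (log2 fold change -1.24, SE 0.31, adjusted p = 0.0274; 0.0531 with the block).

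In the HOG pathway, which carries osmotic and oxidative stress signals, 2 of 9 genes fell and none rose, beside 8.39% and 5.52% of all genes. The MAP kinase gene mpkC read 43.1, 37.4 and 128.01 RPKM untreated and 9.79, 11.6 and 50.7 RPKM on MSB (log2 fold change -1.65, SE 0.14, adjusted p = 0.00141), and the histidine kinase gene tcsB read 243.2, 207.98 and 413 RPKM and 64.2, 60.1 and 222.97 RPKM (log2 fold change -1.47, SE 0.22, adjusted p = 0.00531). hogA had a log2 fold change of 0.39 (adjusted p = 0.175). tcsB and the phosphotransfer gene hk-8-5 (log2 fold change -1.09, SE 0.15, adjusted p = 0.00466) were the 2 of 18 phosphorelay genes that fell, a share near the 8.39% of all genes, and none rose. Of 7 heat shock genes hsp20 rose, from 2.54, 4.34 and 1.18 RPKM to 12.96, 23.1 and 4.66 RPKM (log2 fold change 2.31, SE 0.34, adjusted p = 0.00553). hsp70 read 3330, 3026 and 2663 RPKM and 834, 829.9 and 4953 RPKM, so that MSB replicate 3 held the highest value of the 6 libraries and MSB replicates 1 and 2 the lowest (adjusted p = 0.239). None of the 5 trehalose genes and none of the 19 iron-sulfur cluster assembly genes was called by edgeR. The median log2 fold changes were -0.27 and -0.04. Members with an unadjusted p below 0.05 numbered 1 and 5, beside 4428 of all 9596 genes. DESeq2 called 0 trehalose and 0 iron-sulfur genes.

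Of the 8 tested iron uptake and siderophore genes (of 9), the ferric reductase gene freA rose, from 21.1, 19.3 and 11.9 RPKM to 56.99, 60.2 and 19.6 RPKM (log2 fold change 1.33, SE 0.21, adjusted p = 0.00616). The siderophore transporter gene mirA was called lower at 0.943, 0.592 and 2.25 RPKM against 0.230, 0.236 and 1.05 RPKM (adjusted p = 0.0266, 0.0553 with the block). Of 6 glycerol metabolism genes 1 rose and 1 fell, beside 5.52% and 8.39% of all genes. The median log2 fold change of the list was -0.30. gldB, a glycerol dehydrogenase gene, rose alike in both batches, from 114.1, 121.8 and 85.1 RPKM to 260.96, 288.9 and 219.9 RPKM (log2 fold change 1.33, SE 0.10, adjusted p = 0.00110). larA was called lower (log2 fold change -1.05, SE 0.25, adjusted p = 0.0240), and its adjusted p was 0.0625 with the block.

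In carbon metabolism few members of each list passed the fold threshold, while most TCA cycle and respiration genes had fold changes above 0. Among all genes tested 5.52% rose and 8.39% fell. acuF, encoding phosphoenolpyruvate carboxykinase of gluconeogenesis, fell from 497, 527 and 1290 RPKM to 102.2, 108.8 and 403 RPKM (log2 fold change -2.02, SE 0.16, adjusted p = 0.00117), and acuG, encoding fructose-1,6-bisphosphatase, fell from 121.5, 161.4 and 195.6 RPKM to 32.7, 49.9 and 110.3 RPKM (log2 fold change -1.40, SE 0.25, adjusted p = 0.00908). Of 15 tested glycolysis genes (of 16) fbpZ, a putative fructose-2,6-bisphosphatase gene, fell (log2 fold change -1.90, SE 0.15, adjusted p = 0.00118) and none rose. Of 33 tested TCA cycle genes (of 35) 3 rose and none fell, and 27 had a fold change above 0, with a median of 0.48. These were a putative aconitase gene, AN3894 (log2 fold change 2.15, SE 0.32, adjusted p = 0.00531), and the ATP citrate lyase genes aclA and aclB, which make cytosolic acetyl-CoA. aclA read 199.1, 228.1 and 75.6 RPKM untreated and 626, 553 and 133.1 RPKM on MSB (log2 fold change 1.32, SE 0.20, adjusted p = 0.00584), with both libraries of batch 2 below all others. The alternative oxidase gene AN2099, whose product bypasses part of the respiratory chain, fell from 94.02, 170.7 and 364.2 RPKM to 9.65, 12.1 and 61.9 RPKM (log2 fold change -3.18, SE 0.32, adjusted p = 0.00179), alone among 15 nuclear respiration genes, of which 13 had fold changes above 0. The median log2 fold change of these 15 was 0.79, with 0.66 in batch 1 and 1.02 in batch 2. Of the 15, 13 had an unadjusted p below 0.05 by edgeR, as did 22 of the 33 TCA cycle genes and 4428 of all 9596 genes. Of the 11 mitochondrially encoded genes, all with fold changes above 0 and a median of 0.88, ndhA was called (adjusted p = 0.0385, 0.0889 with the block). ndhA read 1.41, 1.94 and 0.874 RPKM untreated and 3.87, 2.65 and 2.25 RPKM on MSB, and it was not called in batch 1 alone. In ndhDL, ndhE and oxiC MSB replicate 2 lay below untreated replicates 1 and 2, and in ndhD and oxiA between them. In the others it lay above both.

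Among the 13 tested pentose and polyol genes (of 15) AN7590, a mannitol 2-dehydrogenase gene, rose from 20.3, 26.5 and 27.6 RPKM to 119.7, 171.96 and 91.7 RPKM (log2 fold change 2.39, SE 0.26, adjusted p = 0.00236). The 3 members that were called lower, AN11096, AN6985 and AN7588, were each not called with the block (adjusted p = 0.0796, 0.105 and 0.0889). ladA, the L-arabinitol dehydrogenase gene that also serves galactose use, fell from 206.3, 173.4 and 397.5 RPKM to 64.9, 51.1 and 204.4 RPKM (log2 fold change -1.39, SE 0.20, adjusted p = 0.00488). Of the 329 tested carbohydrate-active enzyme genes (of 399) 38 rose and 40 fell, beside 5.52% and 8.39% of all genes, and 30 and 23 were called with the block. The largest falls were those of mutA and of AN8154, which went from 364.3, 296.2 and 1171 RPKM to 4.60, 2.01 and 125.5 RPKM (log2 fold change -5.37, SE 0.85, adjusted p = 0.00646). Among 348 tested transcription factor genes (of 374) 4 rose and 39 fell, which is fewer rises than the 5.52% of all genes would give and more falls than 8.39%, with a median log2 fold change of -0.26. With the block 2 and 29 were called. AN7343, a putative zinc-cluster factor, fell with little spread, from 39.4, 45.9 and 72.5 RPKM to 3.22, 3.87 and 7.76 RPKM (log2 fold change -3.40, SE 0.14, adjusted p = 0.000677).

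**Figure D4:**
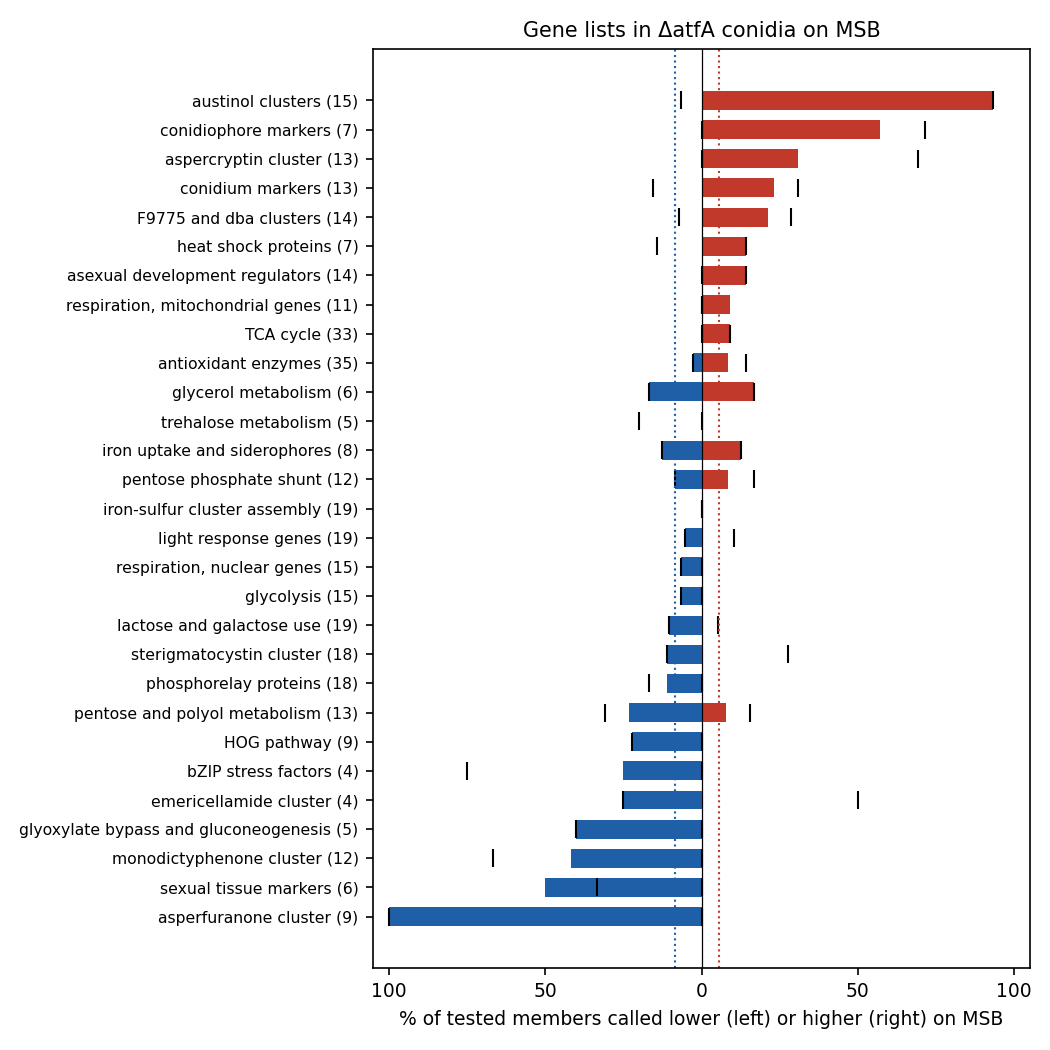
Share of the tested members (number in brackets) of each gene list called lower (blue, left) or higher (red, right) on MSB in ΔatfA conidia over the 6 libraries; black ticks give the same shares in batch 1 alone, and dotted lines the shares of all genes (8.39% and 5.52%). Lists with at least 4 tested members are drawn. The austinol list reaches 14 of 15 higher and the asperfuranone list 9 of 9 lower.

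The fold change on MSB was compared between the batches. The test of the batch by treatment interaction called 570 genes with a higher and 945 with a lower response in batch 2, which is 5.94% and 9.85% of the 9596 genes, while 384 of these 1515 genes were called up and 369 called down in batch 1 alone. Of the 1335 genes called on MSB over the 6 libraries, 301 (22.5%) also differed between batches. The test rests on 1 pair of libraries in batch 2, which it assumes to vary like the duplicates of batch 1, and the difference of replicate 3 was known when it was made. In the fit of all 24 conidial libraries it called 249 and 265 genes. Among the 5 highest genes, AN6151, with predicted catalytic activity, read 710.5, 506 and 1885 RPKM untreated and 3.05, 1.52 and 1288 RPKM on MSB, so it was lost in batch 1 and kept in batch 2 (batch 2 minus batch 1 7.501 on the log2 scale, SE 0.43, adjusted p = 9.14e-05). AN9273 had opposite directions, with 34.04, 45.6 and 2.48 RPKM untreated and 15.7, 19.7 and 54.2 RPKM on MSB, lower in batch 1 and higher in batch 2 (batch 2 minus batch 1 5.51 on the log2 scale, SE 0.39, adjusted p = 0.000112). AN7863, AN6668 and afoB completed the 5. Among the 5 lowest, AN8433 read 3.45, 2.80 and 7.24 RPKM and 42.3, 29.6 and 0.876 RPKM (batch 2 minus batch 1 -6.69 on the log2 scale, SE 0.43, adjusted p = 9.33e-05), and AN6401, a putative hydrophobin gene, read 2.55, 3.82 and 4.33 RPKM and 31.99, 105.5 and 1.76 RPKM (batch 2 minus batch 1 -5.77 on the log2 scale, SE 1.08, adjusted p = 0.00634). AN9006, AN8775 and AN5421 were the others, and in all 5 MSB replicate 3 was below every untreated library. MSB replicates 1 and 2 were above every untreated library in 4 of them, while AN5421 in MSB replicate 2 (16.4 RPKM) was just under untreated replicate 3 (16.8 RPKM).

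Control conidia, with atfA intact, were treated in the same way, with 3 libraries per group in the same 2 batches. Fitted alike, they gave 496 genes up and 1041 down among 9375 (5.29% and 11.1%). Of the 9108 genes tested in both strains, 195 rose in both, which is 39.2% of the 497 that rose in ΔatfA conidia and 40% of the 487 that rose in control conidia. Likewise 256 fell in both, 35.2% of 728 and 26.8% of 955. Opposite calls were few, with 13 genes up in ΔatfA and down in control conidia and 7 the other way. No library is shared between these strains.

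The test of the difference itself called 405 genes with a higher and 260 with a lower MSB effect in ΔatfA than in control conidia among 9927 (4.08% and 2.62%, 6.7% in all). With the replicate number as a block the counts were 266 and 161, in batch 1 alone 1105 and 900, and without ΔatfA MSB replicate 3 they were 848 and 656. Among the genes that differed, 8 asperfuranone genes stood in the lower group. In control conidia afoE read 0.0267, 0.0354 and 0.0377 RPKM untreated and 0.276, 0.328 and 0.0830 RPKM on MSB, and afoB 0.581, 0.341 and 1.17 RPKM and 4.35, 4.25 and 0.585 RPKM, so that both were near 0 there before treatment. Over the 9 genes the control libraries held at most 9.52 RPKM, which was the level of afoC in untreated replicate 3. The ΔatfA untreated libraries held 1203 RPKM or more of afoB, and the difference in its MSB effect was ΔatfA minus control -9.73 on the log2 scale, SE 2.22, adjusted p = 0.0270. AN9299, among the 5 lowest as well, read 0.126, 0.167 and 0.213 RPKM and 2.46, 2.32 and 0.301 RPKM in control conidia.

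Among the genes with a higher MSB effect in ΔatfA conidia were heat shock and antioxidant genes. hsp20 fell in control conidia, from 246.98, 219.2 and 259.7 RPKM to 71.2, 77.2 and 71.9 RPKM, and rose in ΔatfA conidia (ΔatfA minus control 4.19 on the log2 scale, SE 0.62, adjusted p = 0.00551). Among the 7 heat shock genes 4, and among the antioxidant genes 6, had a higher MSB effect in ΔatfA conidia and none a lower, beside 4.08% and 2.62% of all genes. In control conidia 4 of 7 heat shock genes and 6 of 36 tested antioxidant genes fell on MSB and none rose. Of all genes tested in control conidia 11.1% fell and 5.29% rose. With the block 2 heat shock and 5 antioxidant genes were called. For tpxB the control levels were 498, 541 and 578 RPKM untreated and 607, 664 and 687 RPKM on MSB, so the ΔatfA conidia started lower and stayed lower on MSB (ΔatfA minus control 1.26 on the log2 scale, SE 0.27, adjusted p = 0.0220). sodA read 1418, 1300 and 1328 RPKM and 1435, 1496 and 1295 RPKM in control conidia (ΔatfA minus control 1.03 on the log2 scale, SE 0.24, adjusted p = 0.0271). trxB differed as well (ΔatfA minus control 4.17 on the log2 scale, SE 0.85, adjusted p = 0.0196), and its response in ΔatfA conidia came from batch 1. The 5 highest genes of the test were AN3893, AN6404, AN8775, AN0546 and AN11079. Of these AN0546 was called on MSB in ΔatfA conidia, at 1.39, 1.87 and 0.246 RPKM untreated and 33.8, 89.2 and 0.283 RPKM on MSB, high in batch 1 only, and its difference (ΔatfA minus control 7.05 on the log2 scale, SE 1.69, adjusted p = 0.0305) had an adjusted p of 0.0507 with the block. The austinol genes gave no call between the strains. In control conidia 13 of 14 tested also rose, beside 5.29% of all genes, with a median log2 fold change of 2.02. The monodictyphenone genes fell in control conidia too (11 of 12, median -4.34), beside 11.1% of all genes. For 3 the fall was smaller in ΔatfA conidia (1 with the block).

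**Figure D5:**
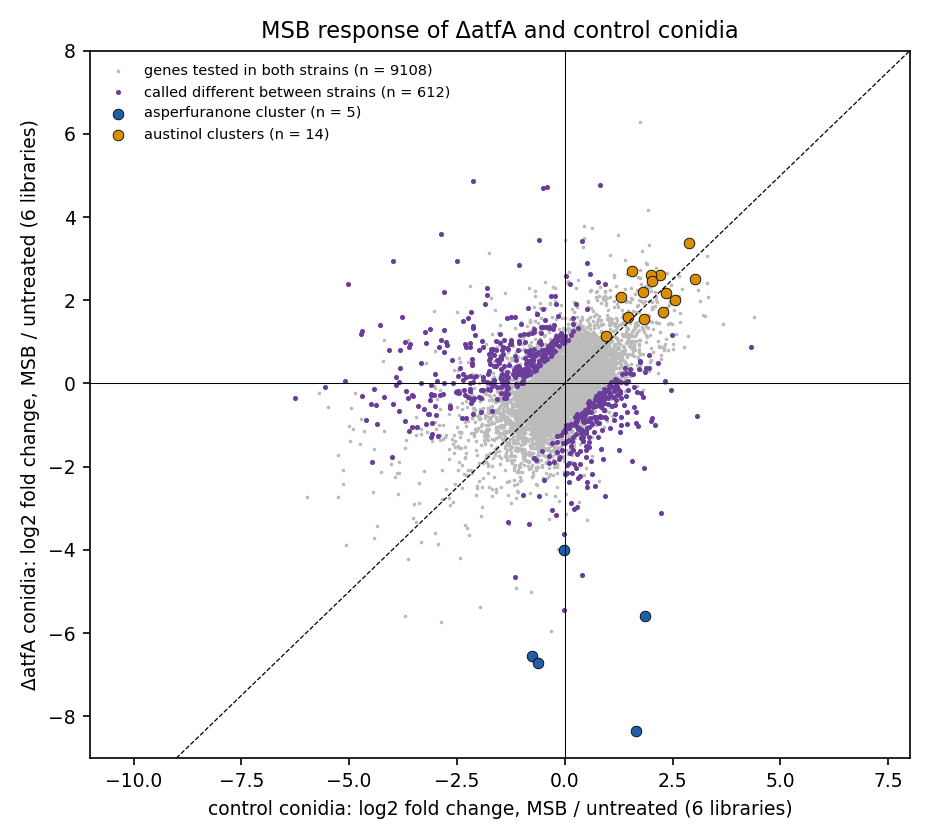
Each point is a gene, with its log2 fold change on MSB in control conidia (x axis) and in ΔatfA conidia (y axis), 6 libraries each with batch as a term; purple marks the 612 of these 9108 genes called different between the strains, and the dashed line is equality. The austinol genes lie near the line, whereas the 5 asperfuranone genes tested in both strains lie far below it.

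The conidia of the ΔatfAΔatfB strain, which lack atfA as well, gave 39 genes up and 65 down of 9654 on MSB (0.404% and 0.673%). In batch 1 alone they gave 299 up and 242 down. The overlaps that follow are those of the calls over 6 libraries per strain. Of the genes tested in both strains, 25 of the 37 that rose and 48 of the 60 that fell in the double mutant were called the same way in ΔatfA conidia, which is 4.75% and 6.11% of the ΔatfA calls, and no gene was called in opposite directions. The test of the difference called 5 genes, all with a lower MSB effect in ΔatfA conidia, and no gene with a higher one, among 9919 (0.0504% and 0%), where 1608 genes had an unadjusted p below 0.05 and DESeq2 called 54 and 110. The 5 were afoA, afoF, afoG, AN8060 and AN6813. afoF read 699.6, 626 and 582 RPKM untreated and 9.01, 7.55 and 34.1 RPKM on MSB in ΔatfA conidia, against 114.5, 120.6 and 123.8 RPKM and 78.2, 79.1 and 74.3 RPKM in the double mutant (ΔatfA minus ΔatfAΔatfB -4.80 on the log2 scale, SE 0.58, adjusted p = 0.0240). afoA read 37.3, 35.7 and 41.8 RPKM and 11.7, 11.8 and 24.8 RPKM in the double mutant (ΔatfA minus ΔatfAΔatfB -2.75 on the log2 scale, SE 0.24, adjusted p = 0.00179). AN8060 fell in ΔatfA conidia from 785, 896 and 623 RPKM to 17.9, 28.3 and 50.3 RPKM (ΔatfA minus ΔatfAΔatfB -3.17 on the log2 scale, SE 0.43, adjusted p = 0.0411). With the block 2 genes were called, and afoF, afoG and AN8060 each had an adjusted p of 0.0542. In batch 1 alone 231 genes had a higher and 390 a lower effect, and without ΔatfA MSB replicate 3 the counts were 171 and 265. The cichorine genes were not called between these strains, and cicE in the double mutant read 29.3, 93.1 and 18.8 RPKM untreated and 1334, 1810 and 47.7 RPKM on MSB, again high in replicates 1 and 2 and low in replicate 3.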

How the data were processed

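Conidial RNA of ΔatfA cultures was sequenced with a TruSeq kit as single reads of 75 bases. Per the labels' processing notes the authors used HISAT2 2.1.0, FastQC, DESeq2 1.24.0 and edgeR. The counting tool, its annotation and its use of strand are not given in the sources used here, so overlapping and antisense genes may share reads. The deposited tables hold raw counts per gene, made by the authors, and RPKM values deposited beside them, which equal counts scaled by gene length and library total. Libraries of 10742605 to 22694003 counts were used. The replicates are biological replicates by the study's account.

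Low genes were left out by requiring 0.5 RPKM or more in 3 or more of the libraries, and the remaining 9596 of 10988 were tested with edgeR 4.0.16 (R 4.3.3) by its quasi-likelihood F test on the counts, with relative log expression scaling, batch as a term and Benjamini-Hochberg adjustment. A call needed an adjusted p under 0.05 with a change of over 1 in log2 units. Differences between batches, or from control or ΔatfAΔatfB conidia (12 libraries each), were tested as interaction terms. Alternatives were TMM, DESeq2 1.42.0, other filters, no batch term, batch 1 alone, 24 libraries, a replicate block and leaving out each library. Same-numbered libraries deviated together (r = 0.265, 0.399 and 0.41), and the replicate block treated the numbers as pairs. The main fits held batch and not the replicate number. No label states a shared day, and within batch 1 the data do not single out the number, since untreated replicate 2 and MSB replicate 1 gave r = 0.306. Gene symbols came from the study's lists and RefSeq, which was used for names and neighbours only. ΔatfB conidia were not used outside the fit of 24 libraries.

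Named genes were the bZIP factors, development regulators and conidium markers, the 10 highest and 10 lowest called genes with groups apart and a mean of at least 10 RPKM, up to 4 called members per list, and the 5 highest and 5 lowest per test of a difference. Members and lists were chosen with earlier results of these data known. Other genes named (among them sodA, hsp70, hogA, aflR, catB, cpeA, easD, steA, nsdD, ivoB, mdpB, tdiE, AN9244, phiA and the cichorine, terrequinone and other single clusters) were chosen after their values were seen.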

Additional observations from a re-analysis of the deposited data

Results flagged for a closer look

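The MSB effect differed between batches by the interaction test, with 570 genes higher and 945 lower in batch 2. The 5 highest differences (log2, batch 2 minus batch 1) were 7.5 for AN6151, 6.21 for AN7863, 5.78 for afoB, 5.51 for AN9273 and 5.30 for AN6668. The 5 lowest were -7.79 for AN9006, -7.06 for AN8775, -6.69 for AN8433, -5.77 for AN6401 and -5.52 for AN5421. They rest on 1 library per group in batch 2, which the test assumes to vary like the duplicates of batch 1.

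The MSB effect also differed between ΔatfA and control conidia by the interaction test, with 405 genes higher and 260 lower in ΔatfA. The highest differences (log2, ΔatfA minus control) were 7.67 for AN3893, 7.56 for AN6404, 7.41 for AN8775, 7.05 for AN0546 and 6.81 for AN11079. Of these, AN8775 was also among the 5 lowest batch differences. In ΔatfA conidia the batch 2 difference on MSB was 0.11 for AN0546 and -0.91 for AN11079. The edgeR adjusted p of AN0546 was 0.0507 with the replicate block. The lowest were -10.4 for AN9299, -9.73 for afoB, -9.68 for afoE, -9.08 for afoF and -8.26 for afoG.

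Against ΔatfAΔatfB conidia the same test by edgeR called 0 genes higher and 5 lower in ΔatfA, with 1608 genes at an unadjusted p below 0.05 and 54 and 110 genes called by DESeq2. The 5 differences (log2, ΔatfA minus ΔatfAΔatfB) were -4.80 for afoF, -4.71 for afoG, -3.17 for AN8060, -2.75 for afoA and -2.62 for AN6813. With 3 libraries per group no test for a single library far from the others was made.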

How the results depend on the processing

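No result named here changed direction while called. The counts of genes up and down on MSB (530 and 805) were 4 and 29 without the batch term, 922 and 1110 in batch 1 alone and 1697 and 1635 without the fold threshold, and leaving out 1 library gave 351 (without untreated replicate 1) to 929 up (without replicate 3 of either group) and 548 to 1101 down. The batch difference (570 and 945) was 249 and 265 with all 24 conidial libraries, and 566 to 611 and 894 to 1022 without 1 library of batch 1; it cannot be had without replicate 3. The difference from control conidia (405 and 260) was 1105 and 900 in batch 1 alone, 643 and 384 by DESeq2, and 149 (without untreated replicate 1) to 848 up and 84 (without MSB replicate 2) to 656 down, both highest without MSB replicate 3. The difference from ΔatfAΔatfB conidia (0 and 5) was 4 and 19 with 24 libraries, 231 and 390 in batch 1 alone, 54 and 110 by DESeq2, and 0 to 171 and 2 to 265, highest without MSB replicate 3. The cause of these changes was not tested. TMM scaling, the other filters and, for the MSB effect, DESeq2 and 24 libraries kept every such count within 1.5 times.

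With the replicate block in place of batch, the MSB counts were 426 and 619, the difference from control conidia 266 and 161 and that from ΔatfAΔatfB conidia 0 and 2. Of the 1335 genes called on MSB 1043 were also called with the block, and of the 665 that differed from control conidia 426 were. Of the results named by the fixed rule 21 lost their call, and no other of these changed. Named results that weakened in other settings numbered 16 in the fit of 24 libraries and 27 to 29 without 1 library of batch 1. They numbered 4 without replicate 3 of either group and 76 without the batch term. With 3 libraries per group, 1 of them alone in its batch, small changes may have been missed.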

Other observations

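Other secondary metabolite clusters, chosen after their values were seen, moved in single directions. Among all genes tested 5.52% rose and 8.39% fell on MSB. In the pkg cluster 4 of 6 genes rose and none fell, with a median log2 fold change of 1.90. In batch 1 alone 6 of 6 rose, beside 9.61% of all genes, while 2 were called with the replicate block. In the pki cluster 4 of 8 genes fell and none rose (median -1.52), 1 of them with the block. In control conidia 7 of 8 fell, beside 11.1% of all genes there. In the AN6431 cluster 4 of 6 tested genes fell (median -1.86). Of 12 genes of the pentose phosphate shunt 1 rose and 1 fell, and of 19 tested light response genes 1 fell.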
